A study of Saccharomyces cerevisiae with 6 samples.

Results

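The Pir genes encode proteins with internal repeats that sit in the cell wall of Saccharomyces cerevisiae. The 4 members described here, PIR1 (YKL164C), HSP150 (also named PIR2, YJL159W), PIR3 (YKL163W) and CIS3 (also named PIR4, YJL158C), were chosen by name from the 6388 genes in the authors' deposited tables. Each of 6 spotted two-colour arrays held total RNA of the strain EKD-13 and of the strain EC1118. EKD-13 has the genetic background of EC1118, an industrial wine yeast, and lacks both copies of KNR4. Cultures fermented 1 L of the synthetic medium MS300 at 28 °C and were sampled in stationary phase, at 70 g of released CO2, or in mid-exponential phase, at 10 g. Each phase had 3 arrays, each with a fermentation of EKD-13 and one of EC1118, and some vessels were sampled in both phases. The mutant carried Cy5 on arrays 1 and 3 and Cy3 on array 2 of each phase. Stationary array 2 alone paired vessels whose numbers differ in the first digit, F13 of EKD-13 and F22 of EC1118. Within stationary phase its dye and its vessels cannot be told apart. The deletion is represented by a single mutant strain, and each array measured a whole culture, so a change in the share of cells that express a gene and a change in RNA per cell cannot be told apart.

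Pir proteins are secreted through the endoplasmic reticulum and Golgi, where they are O-mannosylated and cut by the Kex2 protease. In the wall they are bound to beta-1,3-glucan through their repeats by an alkali-sensitive link, unlike the wall proteins that carry a GPI remnant. Several Pir genes are known to respond to the Slt2 kinase and the transcription factor Rlm1 of the cell wall integrity pathway, and some peak at the end of mitosis or in early G1. Knr4, also named Smi1, is tied to beta-1,3-glucan synthesis and to Slt2 signalling.

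Values below are log2 ratios of EKD-13 over EC1118, so a positive value means more transcript in the mutant. The sign was taken from the labelled dyes and from the authors' log2 fold changes. KNR4, the deleted gene, stood at -1.74 in stationary and -1.89 in mid-exponential phase in the authors' deposited table. On single arrays it had a ratio on mid-exponential array 3 alone, at -4.51. Between 53.1 and 60.6% of the 15488 spots had a ratio on the stationary arrays, and between 77.0 and 85.6% on the mid-exponential ones. The median absolute deviation of the ratios was 0.421 to 0.487 on stationary and 0.27 to 0.37 on mid-exponential arrays. Precision is limited by the small number of arrays. Of the haploid-cell and sporulating-cell markers, 11 and 10 genes, none was called in either phase in the refit, where 1 and 2 of them could be tested, or in the authors' deposited table.

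Each Pir gene was printed as a pair of spots, and the ratio of an array is the mean of the pair. Of the 24 combinations of member and array, 21 had both spots, 1 had a single spot and 2 had none. The 3 combinations without both spots were all CIS3 in stationary phase. The spots of a pair differed by a median of 0.039, and by less than 0.25 in 19 of the 21 pairs. The 2 wider gaps, 0.51 and 0.68, were PIR1 on stationary arrays 2 and 3. The spotted probes' sequences were not used here, and how far a spot bound RNA of a related Pir gene was not tested.

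The 4 genes were not equally abundant in the 2 phases. Their signal is given by the authors' mean log2 intensity over both strains, a value of the authors' deposited tables, which are separate for each phase. Whether the phases were normalised together is not stated in the sources used here. The intensity is set side by side here with no test, and it compares a gene with itself and not with another gene. PIR3 had the brighter signal in stationary phase, at 11.2, against 9.0 in mid-exponential phase in the authors' deposited tables. Its gap of 2.26 was the 12th highest of the 6388 genes. The other members went the opposite way. CIS3 had 7.35 in stationary and 11.3 in mid-exponential phase in the authors' deposited tables, a gap of -3.91 that was the 22nd lowest of all genes. HSP150 had 10.3 in stationary and 13.5 in mid-exponential phase, and PIR1 had 8.23 and 10.4 in that order of phases, with gaps of -3.17 and -2.21. The median gap of all genes was -0.33. In stationary phase CIS3 lay below the median intensity of all genes, 7.49, and most of its spots had no ratio there.

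**Figure D1:**
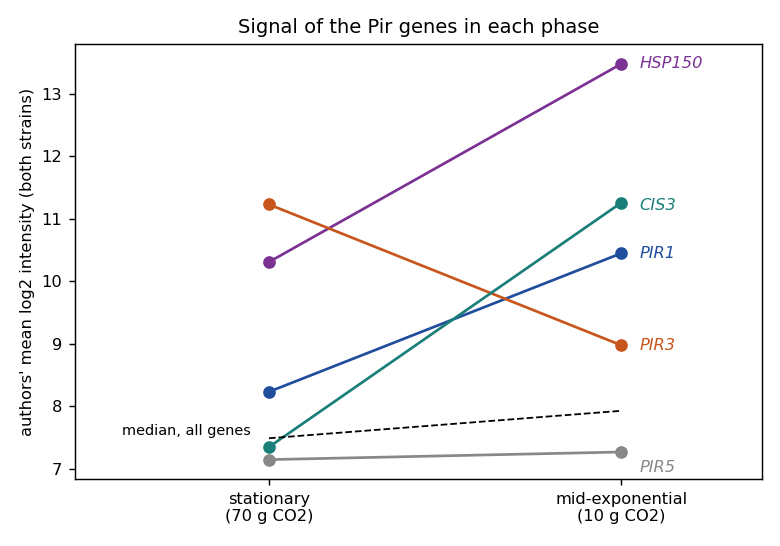
Authors' mean log2 intensity over both strains (vertical axis) of each Pir gene in stationary and in mid-exponential phase, with the median of all genes as a dashed line. PIR3 is brighter in stationary phase, at 11.2 against 9.0, while HSP150, CIS3 and PIR1 are brighter in mid-exponential phase, and PIR5 stays below the median in both.

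PIR1, a wall glycoprotein gene that the transcription factor Swi5 is known to act on, had more transcript in the stationary mutant. Its ratios were 0.95, 2.13 and 1.57 on stationary arrays 1, 2 and 3. In mid-exponential phase the ratios of PIR1 were -0.21, -0.62 and -0.31 on arrays 1, 2 and 3. All 3 stationary arrays thus lay above 0 and all 3 mid-exponential ones below it, with no overlap. Of the 3020 genes measured on all 6 arrays, 85 (2.81%) had the same arrangement of signs. Within the arrays, PIR1 lay at percentiles 89.7 to 96.8 of all genes in stationary phase and at percentiles 14.4 to 29.3 in mid-exponential phase.

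In stationary phase PIR1 rose 2.93-fold, a log2 ratio of 1.55 ± 0.59 (SD, n = 3) with a 95% interval of 0.96 to 2.14 (limma, adjusted p = 0.031). It was the 1 member called of the 3 that could be tested, where 204 of 4289 tested genes (4.76%) were called in that phase 128 of them (2.98%) as higher and 76 (1.77%) as lower. The call was narrow: it was lost when any array but stationary array 2 was left out, with adjusted p from 0.067 to 0.092, while without stationary array 2 the value was 1.26 (adjusted p = 0.033). With a dye term in the model the value was 1.59 (adjusted p = 0.052). Arrays of the same number shared at least 1 vessel between the phases, and with the array number as a block PIR1 was not called (1.55, adjusted p = 0.122), nor was any other gene in stationary phase, 826 having an unadjusted p under 0.05. In mid-exponential phase PIR1 averaged -0.38 ± 0.21 (SD, n = 3), with a 95% interval of -0.97 to 0.21 (adjusted p = 0.583). The stationary ratio exceeded the mid-exponential one by 1.93 ± 0.35 (SE), with a 95% interval of 1.09 to 2.77. That difference did not pass the threshold over all genes (adjusted p = 0.154), where 5 of 4289 genes (0.117%) did, 2 (0.0466%) with the higher ratio in stationary phase and 3 (0.0699%) with the lower.

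The authors' deposited table called PIR1 in both phases and in opposite directions. It listed 0.69 in stationary phase (adjusted p = 0.0066) and -0.36 in mid-exponential phase (adjusted p = 0.046). The stationary value in the authors' deposited table was thus less than that of the refit, by 0.86 on the log2 scale, and the mid-exponential value differed by 0.02.

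HSP150, a heat-shock-induced wall glycoprotein gene, had ratios of 0.39, 1.29 and 0.58 on stationary arrays 1, 2 and 3. Its mid-exponential ratios were 0.29, 0.20 and -0.09. The 3 stationary ratios lay above all of the mid-exponential ones, an arrangement found in 329 of the 3020 genes on all arrays (10.9%). In stationary phase HSP150 averaged 0.75 ± 0.47 (SD, n = 3), 1.69-fold, with a 95% interval of 0.23 to 1.28, and was not called (limma, adjusted p = 0.102). In mid-exponential phase HSP150 averaged 0.13 ± 0.20 (SD, n = 3), and its 95% interval of -0.39 to 0.65 includes no change. The difference between the phases was 0.62 ± 0.30 (SE; adjusted p = 0.450). In the authors' deposited table HSP150 was called higher in stationary phase, at 0.73 (adjusted p = 0.044), and it was not called in mid-exponential phase, at 0.08 (adjusted p = 0.765). The stationary value rests in part on array 2, with the mutant in Cy3 and with vessels F13 and F22: the other 2 arrays had a mean of 0.49.

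**Figure D2:**
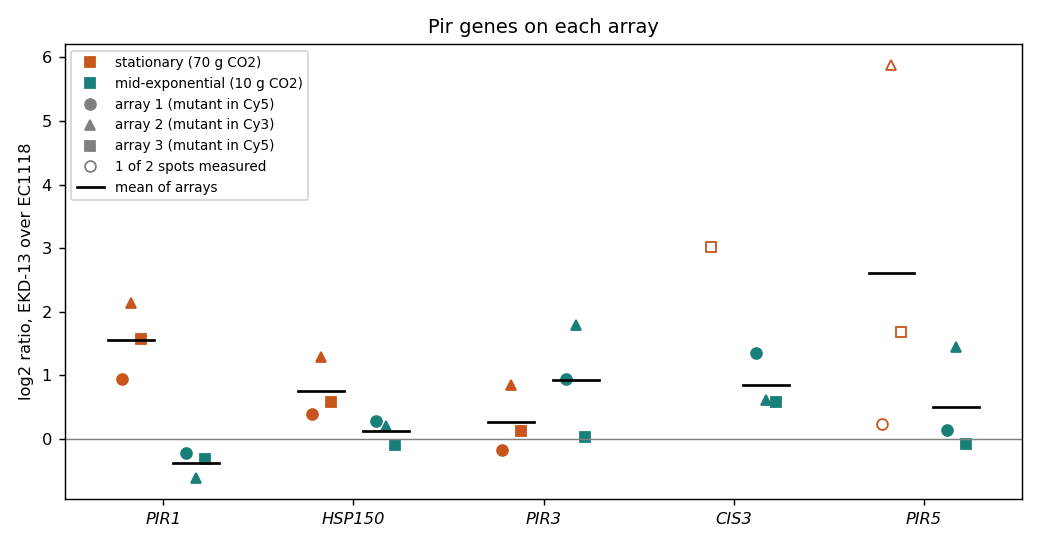
Log2 ratio of EKD-13 over EC1118 (vertical axis) for each Pir gene on each array, stationary arrays left of mid-exponential ones, with symbols for the array number, open symbols where 1 of 2 spots was measured, and black lines for means over arrays. PIR1 lies above 0 on every stationary array and below 0 on every mid-exponential array, and CIS3 lies above 0 on the 3 mid-exponential arrays.

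PIR3, whose transcript is known to peak around the end of mitosis and to depend on the cell wall integrity pathway, had the widest spread of the members between mid-exponential arrays. Its ratios were -0.17, 0.85 and 0.13 on stationary arrays 1, 2 and 3. The mid-exponential ratios of PIR3 were 0.95, 1.79 and 0.03. Array 2 was the highest in both phases, and the phases overlap. In stationary phase PIR3 averaged 0.27 ± 0.53 (SD, n = 3), with a 95% interval of -0.60 to 1.14 (limma, adjusted p = 0.687), and without array 2 its mean was -0.02. In mid-exponential phase it averaged 0.92 ± 0.88 (SD, n = 3), 1.89-fold, with a 95% interval of 0.05 to 1.80, and was not called over all genes (adjusted p = 0.339). Without mid-exponential array 2 that mean was 0.49, and without array 3 it was 1.37. The authors' deposited table called PIR3 higher in mid-exponential phase, at 0.68 (adjusted p = 0.022), but not in stationary phase, at 0.13 (adjusted p = 0.698). The difference between the phases, stationary minus mid-exponential, was -0.65 ± 0.51 (SE; adjusted p = 0.619), so the data do not show that the response of PIR3 differed between them.

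CIS3, a gene for a mannose-rich wall protein, had a single stationary ratio, 3.01 on array 3, from 1 of its 2 spots. Its mid-exponential ratios were 1.35, 0.61 and 0.59 on arrays 1, 2 and 3. All 4 values lay above 0, and the 3 mid-exponential ones lay at percentiles 82.2 to 97.8 of their arrays. Of the 3020 genes measured on all 6 arrays, which do not include CIS3, 740 (24.5%) lay above 0 on all 3 mid-exponential arrays. With 1 stationary ratio CIS3 fell outside the genes tested here, which had ratios on at least 2 arrays of each phase. A fit with no such filter gave a mid-exponential value of 0.85 ± 0.43 (SD, n = 3), 1.80-fold, with a 95% interval of 0.20 to 1.5, which was not called (limma, adjusted p = 0.251). The same fit called the single stationary ratio (adjusted p = 0.038), on the assumption that it varies as the mid-exponential arrays do. It is given here as 1 value without a replicate check. The authors' deposited table called CIS3 higher in both phases, at 0.51 in stationary (adjusted p = 0.046) and at 0.79 in mid-exponential phase (adjusted p = 0.011). The single stationary ratio exceeded the authors' value by 2.50.

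In stationary phase, then, the refit called 1 of the 3 tested members as higher and none as lower, with a median of 0.75 against -0.02 over all tested genes. The authors' deposited table called 3 of the 4 members as higher, PIR1, HSP150 and CIS3, where it called 130 of 6388 genes (2.04%) as higher and 267 (4.18%) in either direction. In mid-exponential phase the refit called none of the 3 tested members, where it called 9 of 4289 genes (0.210%), 7 (0.163%) as higher and 2 (0.0466%) as lower, and 570 genes had an unadjusted p under 0.05, PIR3 among the latter. The median was 0.13 over the tested members and -0.01 over all tested genes. The authors' deposited table called 3 of the 4, PIR3 and CIS3 as higher and PIR1 as lower, where it called 658 of 6388 genes (10.3%), 362 (5.67%) of them as higher and 296 (4.63%) as lower. The members were measured on the same arrays and are not replicates of each other.

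The sizes given by the refit and by the authors' deposited table lay furthest apart at the 2 dimmest signals of the members. Among the brighter ones they followed no steady order. Intensities of different genes are set side by side here only to describe where the sources differed. HSP150 in mid-exponential phase, the brightest at 13.5, differed by 0.05. HSP150 and PIR3 in stationary phase, with intensities of 10.3 and 11.2, differed by 0.03 and 0.14. PIR1 in mid-exponential phase differed by -0.02 and CIS3 by 0.06, with intensities of 10.4 and 11.3. PIR3 in mid-exponential phase, at 9.0, differed by 0.24. At intensities of 8.23 and 7.35, PIR1 and CIS3 in stationary phase differed by 0.86 and 2.50. Each difference is the refit minus the authors' deposited table, on the log2 scale. Larger sizes in the array ratios were not limited to dim genes. Over genes brighter than the median, row E wells left out, the array mean was regressed on the authors' log2 fold change. The slope was 1.80 in stationary phase (2695 genes) and 1.32 in mid-exponential phase (3058 genes). The cause was not tested.

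**Figure D3:**
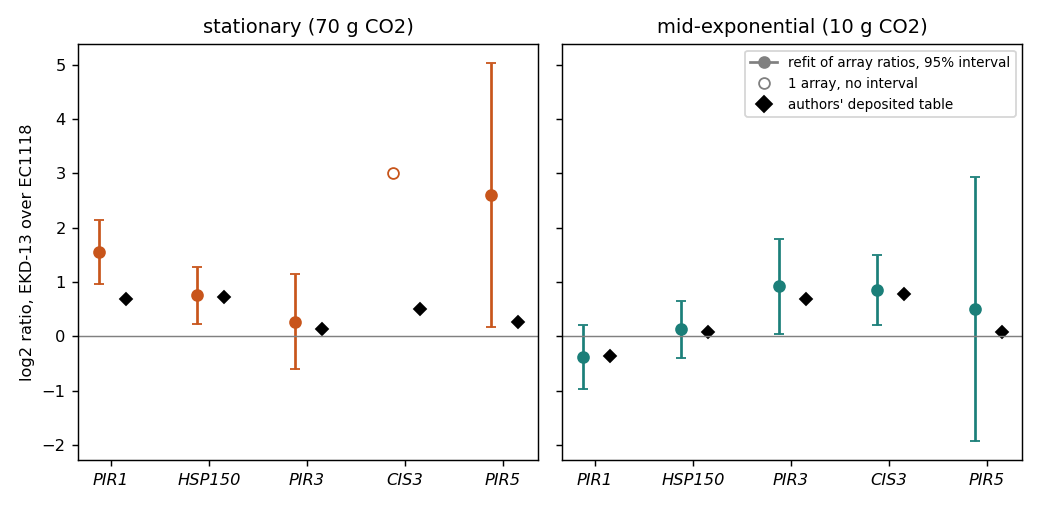
Log2 ratio of EKD-13 over EC1118 (vertical axis) of each Pir gene in stationary phase (left) and mid-exponential phase (right), from the refit with its 95% interval and from the authors' deposited table (diamonds). An open circle marks the single stationary ratio of CIS3, at 3.01 against 0.51 in the authors' deposited table, while HSP150 in stationary phase has 0.75 and 0.73.

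Set against each other on the same array, PIR1 and PIR3 changed places between the phases. The log2 ratio of PIR1 minus that of PIR3 was 1.12, 1.28 and 1.45 on stationary arrays 1, 2 and 3, and -1.16, -2.41 and -0.34 on mid-exponential arrays 1, 2 and 3. HSP150 minus PIR3 was likewise above 0 on each stationary array, from 0.44 to 0.56, and below 0 on each mid-exponential array, from -1.59 to -0.12. PIR1 minus HSP150 lay between 0.56 and 0.99 in stationary phase and between -0.82 and -0.22 in mid-exponential phase. CIS3 minus PIR1 was above 0 on the 4 arrays with both, from 0.90 to 1.56, and so was CIS3 minus HSP150, from 0.41 to 2.43. CIS3 minus PIR3 had mixed signs: 2.89 on stationary array 3, and 0.40, -1.18 and 0.56 on mid-exponential arrays 1, 2 and 3. No test was run on these differences between members. The pairs share members, so the differences are not separate results. How many other pairs of genes have such arrangements was not counted.

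The Pir genes lie in 2 groups of direct neighbours. In RefSeq's gene order for the assembly R64, PIR5, HSP150 and CIS3 follow each other on chromosome X, and PIR1 and PIR3 lie next to each other on chromosome XI, on opposite strands by their systematic names. PIR5 (YJL160C), a less studied gene with Pir repeats, was dim, at 7.15 in stationary and 7.27 in mid-exponential phase in the authors' deposited tables. Its ratios were 0.24, 5.89 and 1.69 on stationary arrays 1, 2 and 3, each from a single spot, and 0.15, 1.44 and -0.08 on mid-exponential arrays 1, 2 and 3. PIR5 averaged 2.60 ± 2.93 in stationary phase (SD, n = 3; limma, adjusted p = 0.184) and 0.50 ± 0.82 in mid-exponential phase (SD, n = 3; adjusted p = 0.910). The authors' deposited table listed it at 0.27 and 0.09, not called.

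Of the neighbouring genes that could be tested, KDX1 alone was called. KDX1, a kinase-like gene known as a target of Rlm1, lies after PIR3 and YKL162C. KDX1 rose by 3.92 ± 0.60 (SD, n = 2) in stationary phase (limma, adjusted p = 0.028), and in mid-exponential phase it averaged 2.37 ± 0.92 (SD, n = 3; adjusted p = 0.107). The authors' deposited table called it in mid-exponential phase instead, with KDX1 at 0.28 in stationary (adjusted p = 0.142) and at 1.01 in mid-exponential phase (adjusted p = 7.1e-04). KDX1 was dim in stationary phase, at a mean log2 intensity of 7.14 against a median of 7.49 over all genes. Next to PIR1, MCD4, an enzyme gene of GPI anchor synthesis, averaged 0.18 and 0.07, and TPK3, a catalytic subunit gene of protein kinase A, averaged 0.28 and 0.28 in stationary and mid-exponential phase. ELF1, beyond KDX1, had 0.15 and -0.19. YKL162C was measured on 3 arrays, at 0.46 and -0.38 in stationary phase and 2.48 in mid-exponential phase. On chromosome X, FMP33 had -0.60 and -0.43 and SSY5, a protease gene of amino acid sensing, had -0.10 and -0.08. None of MCD4, TPK3, ELF1, FMP33 and SSY5 was called, with adjusted p from 0.200 to 0.956. JJJ2 was below 0 on its 4 arrays, from -3.06 to -0.85, FBP26 was above 0 on its 3 mid-exponential arrays, from 0.72 to 1.27, and FAR1 had no ratio. The median ratio of all genes of chromosome X lay between -0.22 and -0.02 on the 6 arrays, and that of chromosome XI between -0.19 and -0.01, so neither chromosome as a whole stood higher. The median of chromosome XII, which holds no Pir member, lay between 0.52 and 1.02.

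**Figure D4:**
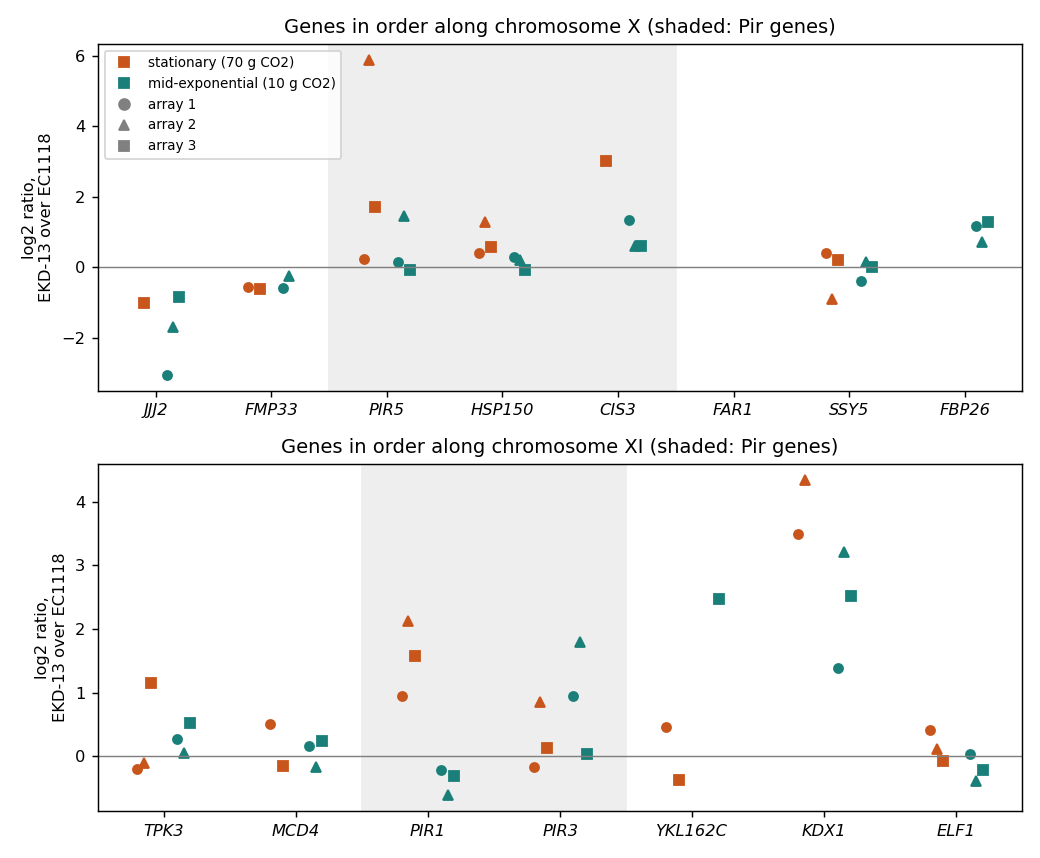
Log2 ratio of EKD-13 over EC1118 (vertical axis) on each array for the Pir genes (shaded) and their neighbouring protein-coding genes, in chromosome order at equal spacing (horizontal axis). KDX1 lies above 1.3 on its 5 arrays, whereas TPK3, MCD4 and ELF1 near PIR1 and PIR3 have means between -0.19 and 0.28.

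The genes whose ratios were nearest to those of each member, by the root mean square difference over the arrays of that member among 3017 other genes, are given here as a description, 3 for each member. HSP150 had the closest match, SWM1, a subunit gene of the anaphase-promoting complex, at 0.11 over 6 arrays, followed by SIC1, a gene for an inhibitor of the cyclin-dependent kinase, at 0.16 and YGL230C at 0.20. PIR3 was nearest to NCW1, a wall protein gene, at 0.34, and then to PML1, an RNA retention factor gene, at 0.43 and PNP1, the purine nucleoside phosphorylase gene, at 0.43. PIR1 had no close match: YHR214C-C, YML040W and SNT309, a splicing factor gene, stood at 0.44, 0.45 and 0.48. YHR214C-C and YML040W are members of the Ty1 family of retrotransposon genes, whose copies share sequence. CIS3, over its 4 arrays, was nearest to YPK2, a kinase gene of plasma membrane signalling, at 0.22, then to NUP2, a nucleoporin gene, at 0.28 and MAP2, a methionine aminopeptidase gene, at 0.33. SIC1, PML1, PNP1 and NUP2 lie on chromosome XII, whose median ratio stood at 0.52 to 1.02 on the arrays. Among themselves, by the same measure, HSP150 lay 0.70 from PIR1 and 0.78 from PIR3, PIR1 lay 1.43 from PIR3, and CIS3 lay 1.31 to 1.60 from each of the others.

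Genes known to respond to Slt2 and Rlm1, without the Pir genes, had a median of 0.27 in stationary and 0.70 in mid-exponential phase over 14 tested of 20 listed. Without the 2 of them on chromosome XII the medians were -0.02 and 0.65. The medians of all tested genes were -0.02 and -0.01. For this list and those below, the refit called 4.76% of all tested genes in stationary and 0.210% in mid-exponential phase. In stationary phase KDX1 was called higher and SPS100, a spore wall gene, lower, at -6.72 ± 1.44 (SD, n = 2; limma, adjusted p = 0.012), and SED1, an abundant wall glycoprotein gene, had 0.86 (adjusted p = 0.068). None was called in mid-exponential phase, where 12 of the 14 lay above 0. SRL3 stood at 1.66 ± 0.25, NCW2, on chromosome XII, at 1.34 ± 0.32 and the phosphatase gene PTP2 at 1.26 ± 0.23 over 3 arrays each, and their adjusted p-values were 0.060, 0.091 and 0.107. The authors' deposited table called 1 of the 20 higher and none lower in stationary phase, and 9 higher and none lower in mid-exponential phase, 6 of the 9 outside chromosome XII. Over all genes the shares called higher in the authors' deposited table were 2.04% in stationary and 5.67% in mid-exponential phase.

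Genes listed for beta-1,3-glucan, the polymer that holds the Pir proteins, mostly make or remodel it. The list also holds KRE6 and the regulator genes RHO1 and ROM2. The median of the list was 0.37 in stationary and 0.33 in mid-exponential phase over 12 tested of 16. Without the 4 tested genes on chromosome XII, whose median ratio stood at 0.52 to 1.02 on the 6 arrays, the medians of the other 8 were 0.18 and -0.02. FKS1, the main glucan synthase subunit gene, rose by 1.53 ± 0.60 (SD, n = 3) in stationary phase (limma, adjusted p = 0.032) and had 1.10 ± 0.28 in mid-exponential phase (adjusted p = 0.149). FKS1 lies on chromosome XII. SCW4, a wall protein gene of the glucanase family, rose by 0.88 ± 0.18 in stationary phase (adjusted p = 0.036), and its relative SCW10 had 1.81 ± 0.88 (adjusted p = 0.056). In mid-exponential phase none was called, with KRE6, needed for beta-1,6-glucan, at 0.96 and EXG1, a glucanase gene on chromosome XII, at 0.91. The authors' deposited table called 4 of the 16 higher and 1 lower in each phase, where it called 2.04% of all genes higher and 2.14% lower in stationary phase and 5.67% higher and 4.63% lower in mid-exponential phase. Of those called higher in the authors' deposited table, 3 in stationary and 2 in mid-exponential phase lay outside chromosome XII, KRE6 among them in each phase. The gene called lower in the authors' deposited table was GAS1 in stationary phase, at -0.69, and GAS3 in mid-exponential phase, at -0.50.

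No gene for the maturation of Pir proteins was called, where 4.76% of all tested genes were in stationary and 0.210% in mid-exponential phase. With 11 genes tested, the absence of a call lies near those shares. Of the 13 listed, for Kex2, the Pmt O-mannosyltransferases and Golgi mannosyltransferases, 11 were tested, and their ratios lay between -0.64 and 0.52 in stationary and between -0.29 and 0.37 in mid-exponential phase. At an unadjusted p under 0.05 stood KRE2 alone, at -0.46 in stationary phase. The 13 genes also had no call in the authors' deposited table, where 4.18% of all genes were called in stationary and 10.3% in mid-exponential phase. Among transcription factors known from Pir promoters, SWI4 rose by 1.81 ± 0.23 (SD, n = 2; adjusted p = 0.028) and SWI6, on chromosome XII, by 1.24 ± 0.33 (n = 3; adjusted p = 0.032) in stationary phase. These encode the DNA-binding and the shared subunit of SBF. Of the 9 tested, 2 were called in stationary phase, where 4.76% of all tested genes were. None was called in mid-exponential phase, where 0.210% of all tested genes were. Without SWI6 the medians of the other 8 were -0.19 in stationary and -0.004 in mid-exponential phase, and 2 of the 8 lay above 0 in stationary phase. The authors' deposited table listed SWI4 at 0.08 (adjusted p = 0.783) and SWI6 at 0.43 (adjusted p = 0.075) in stationary phase. SWI4 was dim there, at a mean log2 intensity of 7.02 against a median of 7.49 over all genes. Of the 11 listed it called MSN2 alone in stationary phase, as lower, at -0.41 (adjusted p = 0.034). In mid-exponential phase it called SWI6 alone, as higher, at 0.51 (adjusted p = 0.013). These counts stand against the shares of all genes given above. RLM1, at 0.72 in mid-exponential phase, was called in neither source.

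Of 25 genes for GPI wall proteins 17 were tested and none was called, against 4.76% of all tested genes in stationary and 0.210% in mid-exponential phase. Their medians were 0.24 in stationary and 0.14 in mid-exponential phase, or -0.01 and 0.01 without the 3 on chromosome XII. The authors' deposited table called 3 higher and 2 lower in stationary phase, and 5 higher and 1 lower in mid-exponential phase, against the shares of all genes given above. Outside chromosome XII these counts in the authors' deposited table were 2 higher and 2 lower in stationary phase, and 2 higher and 1 lower in mid-exponential phase. Of 10 genes for further secreted wall proteins 6 were tested, with medians of -0.24 in stationary and -0.57 in mid-exponential phase. SIM1, of the SUN family, rose by 3.13 ± 0.06 (SD, n = 2; adjusted p = 0.012) and TOS1 by 1.09 ± 0.16 (n = 3; adjusted p = 0.028) in stationary phase. NCA3 had -1.66, PRY1 -0.74 and YGP1 -0.49 in stationary phase in the refit, none of them called. The authors' deposited table listed SIM1 at 0.41 (adjusted p = 0.127) and TOS1 at 0.66 (adjusted p = 0.0034) in stationary phase. It called NCA3, at -1.23, and PRY1, at -0.66, lower there. SIM1 was dim in stationary phase, at a mean log2 intensity of 7.32 against a median of 7.49 over all genes. In mid-exponential phase none of the 6 was called in the refit, where NCA3 had -1.89, PRY1 -0.95 and YGP1 -0.87. The authors' deposited table had NCA3 at -1.51, PRY1 at -0.90 and YGP1 at -0.85, all called lower.

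**Figure D5:**
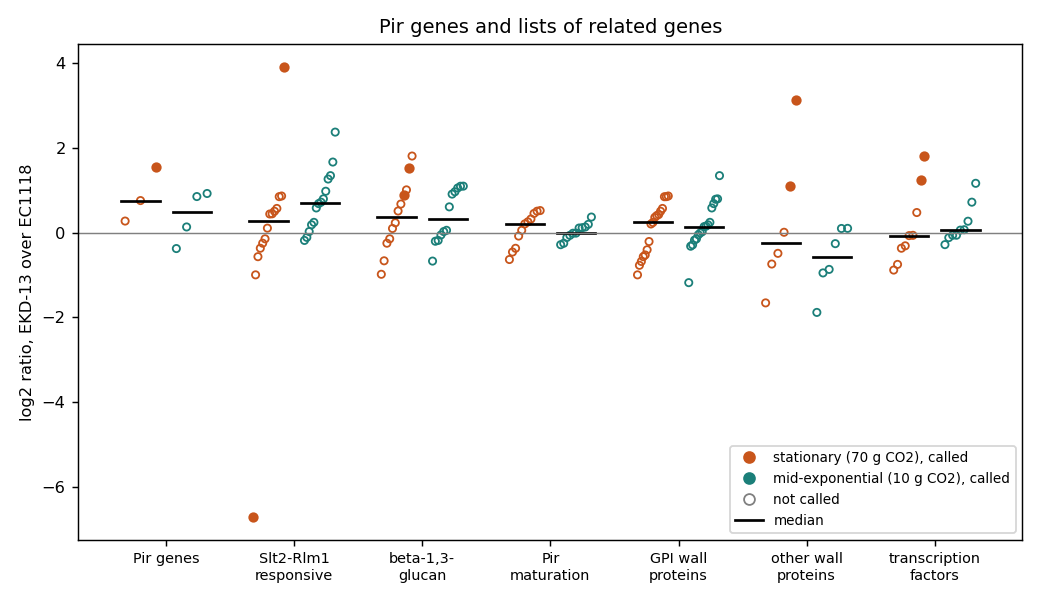
Mean log2 ratio of EKD-13 over EC1118 (vertical axis) of each tested gene of the Pir family and of 6 lists, stationary left of mid-exponential, with filled symbols for genes called at an adjusted p under 0.05 and black lines for medians. The medians of the Slt2-Rlm1 responsive genes are 0.27 in stationary and 0.70 in mid-exponential phase, and CIS3, from the fit with no filter, is plotted for mid-exponential phase alone, where it counts in the line for the Pir genes.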

How the data were processed

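Per the labels' protocols, RNA was extracted with Trizol and 5 µg was made into labelled cDNA. Per the submitters' processing notes the authors used R 2.9.2 and limma; the sources used here do not name the limma version, background correction, normalization or spot filter. The authors deposited log2 ratios per spot and, for each phase, a limma table whose columns hold raw and adjusted p-values, the moderated t (a score), the average log2 intensity, the log2 fold change and, in the stationary table, its linear fold. On each array 98.6 to 100% of the genes the authors called had the authors' sign, so swapped arrays had been turned before deposit; scale and centring before deposit are otherwise unknown, and array medians lay between -0.027 and 0.019.

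Spots were named through plate wells and averaged. The 228 genes in row E of plates 10 to 19 were left out, because their ratios followed the authors' log2 fold changes poorly over bright genes (r = 0.473 and 0.359 in mid-exponential and stationary phase, against 0.971 and 0.840 elsewhere). RefSeq held 5849 of the 6388 locus tags. All 6 arrays entered 1 limma 3.58.1 model (R 4.3.3) with a mean for each phase. Genes with ratios on at least 2 arrays of each phase, 4289 in all, were tested two-sided with Benjamini-Hochberg adjustment, and called at an adjusted p under 0.05; the script was tested on simulated data. An SD is over arrays. Haploid-cell and sporulating-cell markers were checked. Plots were drawn with matplotlib 3.10.9, and tables with numpy 2.4.6 and pandas 2.3.3 under Python 3.11.15. One further list of genes is not reported here. The members and lists were chosen with earlier results of these data known. Genes to be named were the members, PIR5 and the 3 nearest genes to each member. Added to these were the 3 annotated genes on each side of a cluster (tRNA genes not on the array). Of each list, the called genes and the 3 with the smallest p were to be named. Not all of the latter were: the GPI paragraph names none of its list, and of the Pir maturation list KRE2 alone is named. Others named were chosen after their values were seen. Alternatives changed the normalization, filters, spots, wells, model, weights, source and arrays.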

Additional observations from a re-analysis of the deposited data

Results flagged for a closer look

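Among the Pir genes, their neighbours, the genes nearest to them in ratio and the list genes that were called or had the smallest p-values, 2 lay above 0 on every stationary array and below 0 on every mid-exponential array. Of all 3020 genes measured on the 6 arrays, 85 (2.81%) did so and 77 (2.55%) had the opposite arrangement. The genes looked at were in part chosen by these same ratios and p-values. Their count is therefore a description and cannot be read against these shares. PIR1 differed by 1.93 between the phases, stationary minus mid-exponential, and the test of that difference did not pass (limma, adjusted p = 0.154). SCW4 had 1.07, 0.74 and 0.82 on the stationary arrays and -0.11, -0.38 and -0.13 on the mid-exponential arrays, a difference of 1.08 (adjusted p = 0.166).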

How the results depend on the processing

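PIR1 stayed above 0 in stationary phase and below 0 in mid-exponential phase under every alternative run, from 0.69 to 2.13 and from -0.62 to -0.26, but its stationary call held in 9 of the 19 alternatives with a test. It was lost with arrays brought to a common spread (1.21, adjusted p = 0.058), a dye term (1.59), array weights (1.30) and each phase fitted alone (1.55, adjusted p = 0.262). With the array number as a replicate block the value was 1.55 (adjusted p = 0.122). Same-numbered arrays share vessels in part, and their deviations correlated at 0.08, 0.21 and -0.05, so pairing by number was not clear from the values. HSP150 and PIR3 were called neither with the block nor without it, so the block had no other member's call to remove. Leaving out an array in turn gave 1.26 to 1.85 for PIR1 in stationary phase and -0.021 to 0.49 for PIR3, which was -0.021 both without stationary array 2 and on the stationary arrays with the mutant in Cy5 and 0.85 on the one with Cy3. On the arrays with Cy3, HSP150 had 1.29 in stationary phase and PIR1 had -0.62 in mid-exponential phase (both chosen after seeing the data). On stationary array 2 dye and vessels cannot be told apart. The authors' deposited table alone called HSP150 in stationary phase (0.73) and PIR1 (-0.36), PIR3 (0.68) and CIS3 (0.79) in mid-exponential phase. No alternative called a difference between phases for PIR1, HSP150 or PIR3. CIS3 could not be fitted under most alternatives for lack of stationary ratios.

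The number of genes called depended strongly on the setting. In stationary phase 204 became 28 with a common spread, 72 with a dye term, 0 with the replicate block (826 at an unadjusted p under 0.05), 54 with array weights, 0 with each phase alone (553 unadjusted) and 6 to 355 when an array was left out. In mid-exponential phase 9 became 178 with a common spread, 3 with no filter, 1 with the last spot, 1 with a dye term, 0 with the replicate block (472 unadjusted), 356 with array weights, 0 with the phase alone (1228 unadjusted), 658 in the authors' deposited table and 0 to 15 when an array was left out. For the difference 5 became 2 with no filter, 3 without dim genes, 3 with the first spot, 2 with the last spot, 2 with a dye term, 1 with the replicate block and 1 to 21 when an array was left out. Lists without their genes on chromosome XII were chosen after seeing the data. The causes were not tested.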
